A study of Canis lupus familiaris with 5 samples.

Results

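The proteasome genes of 5 canine lymphoid tumour lines are described here. They were taken by name: every gene with a probe set of its own whose symbol begins with PSM, a letter from A to G and a digit. The rule found 44 genes with 89 probe sets among 15115 genes on the array. Of these, 42 encode subunits, activators, an inhibitor or assembly chaperones of the proteasome, and 2 share only the name: PSMC3IP, a cofactor of meiotic recombination, and PSME3IP1, a protein that binds an activator. Those 2 are left out of every count below. The immunoproteasome members were PSMB8, PSMB9, PSMB10, PSME1 and PSME2, and the other 37 are called constitutive. PSMB7, PSMC1, PSMD1 and PSMG4 had no probe set of their own among those used here, and PSMD4 and PSMD5 were covered only by probe sets that also name another gene. A gene was read from its probe set of highest mean. One gene, PSMA8, was too dim to be tested, which left 41 (5 immunoproteasome and 36 constitutive).

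The proteasome is the protease that degrades proteins tagged with ubiquitin. Its barrel, the 20S core, is built of alpha rings and beta rings, and the catalytic sites lie on the beta subunits encoded by PSMB5, PSMB6 and PSMB7. A cap, the 19S particle, holds the ATPases (PSMC genes) that unfold a substrate and the non-ATPase subunits (PSMD genes) that bind and strip ubiquitin. In lymphoid cells, and in most cells exposed to interferon gamma, the catalytic subunits are partly replaced by PSMB8, PSMB9 and PSMB10. The resulting immunoproteasome, often capped by the activator ring of PSME1 and PSME2, cuts proteins into peptides that suit MHC class I molecules. PSMB8 and PSMB9 lie in the MHC, where the gene order of the dog reference places TAP1, a peptide transporter chain, between them and TAP2 beside PSMB8.

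Total RNA of each line was labelled with biotin and hybridised to 1 Affymetrix canine array. All lines were grown in RPMI with serum and were not treated. The lines labelled B-cell were 17-71, described as a B-lymphoid malignancy, and GL-1, a B-cell leukemia. The T-cell lines were CL-1, a primitive alpha/beta T-cell leukemia, CLGL-90, a leukemia of large granular lymphocytes (LGL), and CLL-1390, a primitive T-cell leukemia. Each line is 1 established culture with 1 array, so an SD or p-value here measures the spread between lines of a label, and single lines are described without a test. In such bulk RNA, a shift in the make-up of a culture and a change in RNA per cell cannot be told apart. All values are log2 intensities made by the authors.

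Array medians ran from 6.87 to 6.99. The highest of 59 control probe sets for sequences foreign to dogs lay at 6.39 to 6.76, a guide to background. The labels were only partly met by lineage markers. Of 6 B-cell markers on the array, 4 lay at or under that control in each B-labelled line (5 in CL-1 and CLL-1390, 3 in CLGL-90). Of 8 T-cell markers, 4 lay there in CL-1, 2 in CLL-1390 and 0 in CLGL-90, and among the B-labelled lines 5 in 17-71 and 2 in GL-1. Their summed linear levels ran from 3364 in CL-1 to 32269 in CLGL-90 for T-cell markers and from 314 in CL-1 to 1359 in CLGL-90 for B-cell markers. The brightest B-cell marker in CLGL-90 was BLNK (9.90), whereas CD79A lay above the control in GL-1 alone (7.83). The summed linear level of 7 myeloid markers reached 9311 in 17-71 (1 of the 7 at or under the control) and 6770 in GL-1 (2 of 7), while the other lines had 534 to 706 (4 or 5 of 7). Such a sum is set mostly by the brightest markers, here LYZ (12.39 in 17-71 and 12.01 in GL-1) and S100A9 (11.22 and 10.32). LYZ, SPI1, S100A8 and S100A9 were brightest in 17-71, followed by GL-1. The rest of the list did not share that order. CSF1R (6.53 to 6.72) and CD14 (7.95 to 8.26) were nearly flat and lowest in 17-71, and ITGAM was highest in CLL-1390 (7.65). Whether these marker levels bear on any proteasome gene was not tested. Of 4 stromal markers, 2 or 3 lay at or under the control in each line, and their summed levels were 257 to 360.

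Proteasome transcripts gave strong signals in every line and moved little between them. Over the 41 tested genes the median of the gene means was 12.33, and 37 had a mean of at least log2 10. The range of a gene (its highest line minus its lowest) had a median of 0.67 over the 41 genes, 0.81 over the immunoproteasome members and 0.67 over the constitutive ones. Over all 14162 tested genes it was 0.76, and over the 2893 of mean log2 10 or more it was 1.01. A range of log2 1 or more, a doubling, was reached by 11 of 41 proteasome genes (26.8%), where 39.0% of all tested genes reached it. Among genes of mean log2 10 or more the shares were 10 of 37 (27.0%) and 50.7%. The brightest array values lay at 14.83 to 15.13, and signals near the top of a scanner's range can be compressed, whose part in the small ranges was not tested. The 11 genes were PSMB8 and PSMB10 of the immunoproteasome, and PSMA1, PSMB4, PSMB6, PSMC4, PSMD8, PSMD11, PSMD14, PSME3 and PSME4. Without CL-1 only 6 genes reached a doubling, and without 17-71 or GL-1 it was 8 in each case.

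**Figure D1:**
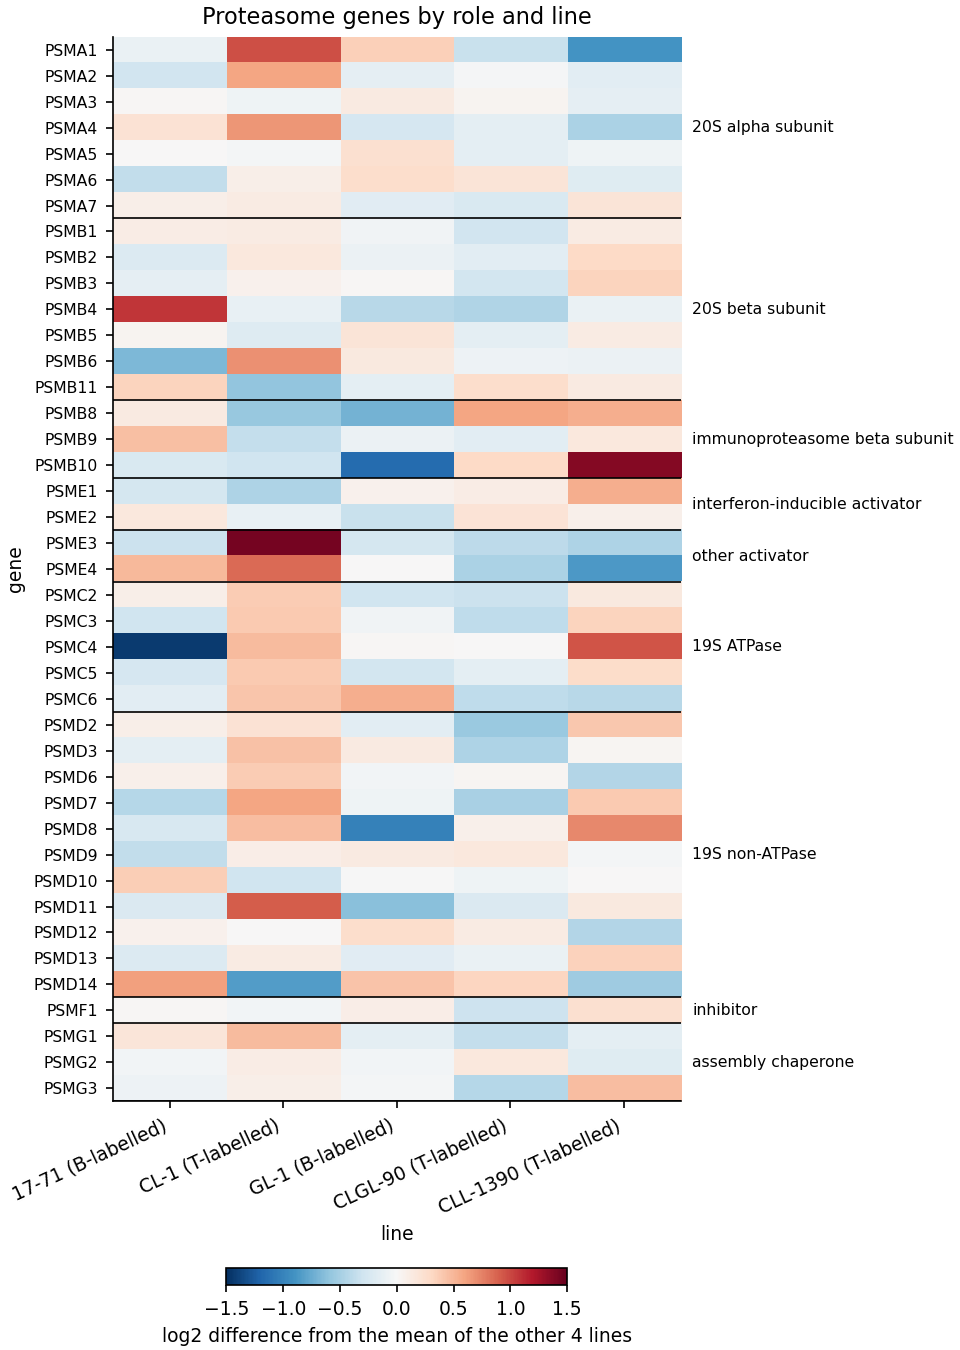
Colour gives each gene's log2 difference from the mean of the other 4 lines, for the 41 tested proteasome genes (rows, by role) in the 5 lines (columns); the scale ends at 1.5 either way. Most cells are pale, the immunoproteasome rows are red in CLL-1390 and blue in CL-1, and the darkest cells include PSMB4 and PSMC4 in 17-71, PSME3 in CL-1, PSMD8 in GL-1 and PSMB10 in GL-1 and CLL-1390.

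The catalytic subunits of the immunoproteasome did not follow 1 order of lines. PSMB10, the trypsin-like subunit, varied most of all 41 genes. It read 10.65 in 17-71, 10.60 in CL-1, 9.91 in GL-1, 11.08 in CLGL-90 and 11.94 in CLL-1390. CLL-1390 thus stood 0.86 above every other line and GL-1 stood 0.69 below, a span of 2.03, or 4.09-fold. The second probe set of PSMB10 was dim (4.98 to 6.18, under the control of each array) and says nothing on this.

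PSMB8, the chymotrypsin-like subunit, stood at 11.91 in CLGL-90, 11.88 in CLL-1390, 11.54 in 17-71, 10.98 in CL-1 and 10.87 in GL-1. The lines CLGL-90 and CLL-1390 were nearly equal, and so were CL-1 and GL-1 at the lower end of a span of 2.06-fold. Its second probe set gave 11.84, 11.68, 11.43, 10.85 and 10.90 for the same lines in that order, so the upper 3 lines came in the same order and the lower 2 exchanged places.

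PSMB9, which takes the place of the caspase-like subunit, spanned only 0.65. It read 13.39 in 17-71, 13.16 in CLL-1390, 12.97 in GL-1, 12.91 in CLGL-90 and 12.75 in CL-1. CLGL-90, highest for PSMB8, was next to lowest here. PSMB9 was measured by 1 probe set.

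By the probe sets used, the activator pair also varied within a doubling. PSME1 (PA28 alpha) read 13.47 in CLL-1390, 13.12 in CLGL-90, 13.08 in GL-1, 12.82 in 17-71 and 12.66 in CL-1, a range of 0.81. All 3 further probe sets of PSME1 were also highest in CLL-1390, and 2 of them were lowest in CL-1. The brightest of them exceeded a doubling, with a range of 1.20. PSME2 (PA28 beta) read 12.73 in CLGL-90, 12.70 in 17-71, 12.63 in CLL-1390, 12.48 in CL-1 and 12.30 in GL-1, a range of 0.43. A further probe set of PSME2 had a range of 0.44 with the same highest and lowest lines. The dimmest ranged over 1.20, from 6.51 in CL-1 to 7.70 in CLGL-90. By gene order PSME1 and PSME2 are near neighbours, with 1 gene between them.

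The constitutive counterparts moved differently. PSMB5, which PSMB8 replaces, was nearly flat, at 13.28 in 17-71, 13.09 in CL-1, 13.40 in GL-1, 13.13 in CLGL-90 and 13.34 in CLL-1390. PSMB6, which PSMB9 replaces, read 12.38 in 17-71, 13.47 in CL-1, 13.03 in GL-1, 12.86 in CLGL-90 and 12.84 in CLL-1390. The line highest for PSMB9, 17-71, was thus the lowest for PSMB6, and the line lowest for PSMB9, CL-1, was the highest for PSMB6. The log ratio of PSMB9 to PSMB6, centred on its mean over the lines, was highest in 17-71 (0.89), followed by CLL-1390 (0.20), CLGL-90 (-0.07), GL-1 (-0.18) and CL-1 (-0.84), a span of 3.32-fold. That of PSMB8 to PSMB5 was highest in CLGL-90 (0.60), followed by CLL-1390 (0.35), 17-71 (0.08), CL-1 (-0.30) and GL-1 (-0.72), a span of 2.49-fold. Such a ratio of 2 probe sets shows that they changed unequally between lines, and gives no ratio of the transcripts in a line. PSMB10 has no such value, since PSMB7 had no probe set to read. For the activators, PSME1 to PSME3 spanned 5.03-fold, from -1.52 in CL-1 to 0.81 in CLL-1390, and PSME2 to PSME3 spanned 3.27-fold, from -1.24 in CL-1 to 0.47 in CLGL-90. In both ratios the other 4 lines lay at -0.06 or above, and CL-1 stood apart.

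**Figure D2:**
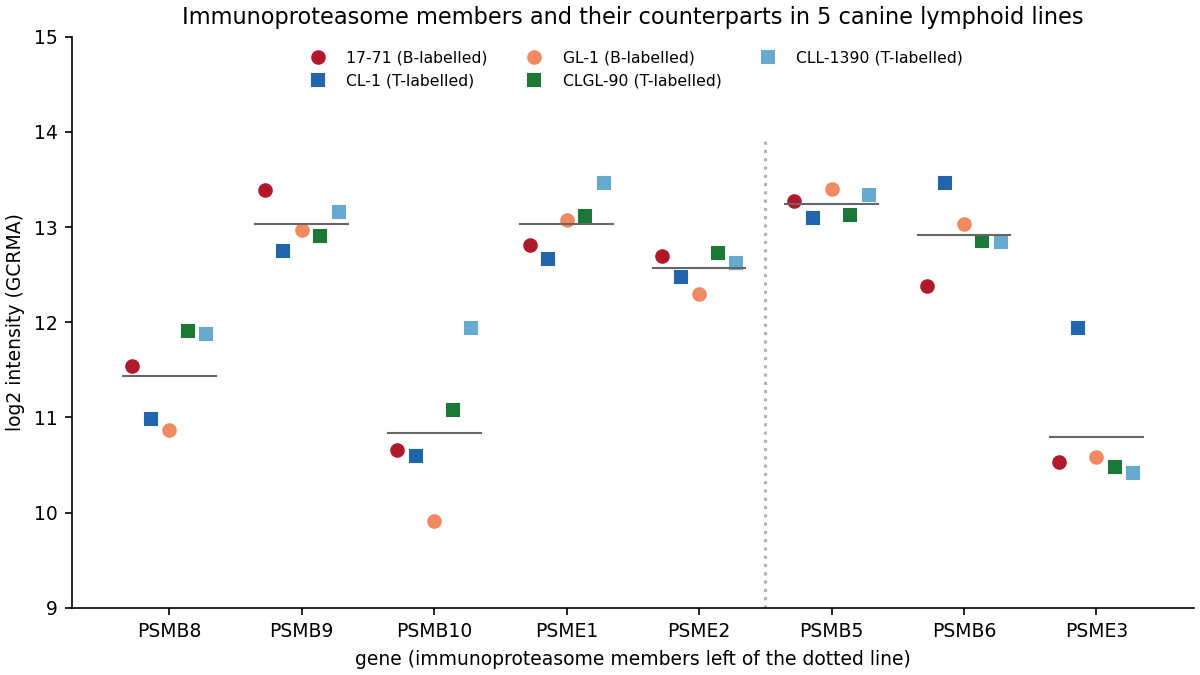
Log2 intensity of the 5 immunoproteasome members and of PSMB5, PSMB6 and PSME3 (x axis) in each of the 5 lines; circles are B-labelled lines, squares are T-labelled lines and a grey bar is the mean over the lines. PSMB10 spreads from 9.91 in GL-1 to 11.94 in CLL-1390, PSMB5 stays between 13.09 and 13.40, and CL-1 stands alone at the top for PSME3.

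CL-1 was low in immunoproteasome transcripts and high in constitutive ones, CLGL-90 leaned the other way in both, and CLL-1390 was high in immunoproteasome transcripts with constitutive ones near the other lines. In CL-1, 0 of 5 immunoproteasome members lay above the mean of the other 4 lines (median difference -0.36, from -0.57 to -0.11), whereas 28 of 36 constitutive members did (median 0.19). Of all tested genes of mean log2 10 or more, 61.7% lay above in CL-1 (median 0.15). In CLL-1390, 5 of 5 lay above (median 0.55, from 0.07 to 1.38), beside 19 of 36 constitutive members (median 0.02). CLGL-90 had 4 of 5 above (median 0.20) beside 10 of 36 (median -0.16), and 40.2% of those bright genes (median -0.10).

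The remaining lines lay between these. GL-1 had 1 of 5 immunoproteasome members above the mean of the other lines (median -0.33) beside 15 of 36 constitutive ones (-0.04), and 17-71 had 3 of 5 (0.14) beside 17 of 36 (-0.06). The difference between the medians, immunoproteasome minus constitutive, was therefore -0.55 in CL-1, -0.29 in GL-1, 0.20 in 17-71, 0.36 in CLGL-90 and 0.53 in CLL-1390. These 5 values are a description of 1 array each. The value of 17-71 turned to -0.01 without CL-1 and to -0.03 without GL-1, so its direction rests on those lines, and it rose by over 1.5 times, to 0.36, without CLGL-90. That of GL-1 was -0.04 when each gene was read from its most variable probe set, -0.19 with the mean of all probe sets and -0.20 without CLGL-90.

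Bright genes as a whole also sat higher in CL-1. Among the 2893 tested genes of mean log2 10 or more, 61.7% lay above the mean of the other lines in CL-1 (median 0.15), against 40.2% in CLGL-90 (median -0.10), 54.5% in CLL-1390, 49.7% in GL-1 and 47.3% in 17-71. Over all tested genes the share in CL-1 was 42.2%. The part of this shift in the constitutive values of CL-1 and CLGL-90 was not tested. The immunoproteasome medians of CL-1 and CLGL-90 lay on the opposite side of 0 from the bright genes. They lay on the same side as the medians of all tested genes (-0.09 in CL-1 and 0.05 in CLGL-90).

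**Figure D3:**
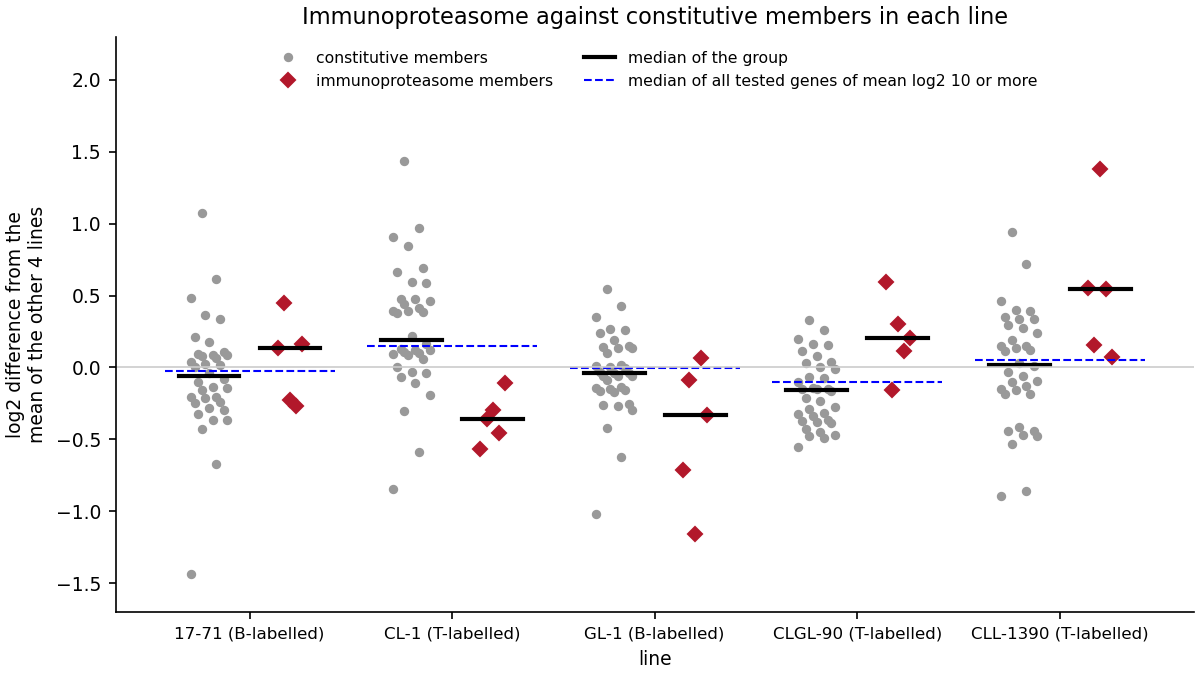
Log2 difference of each gene from the mean of the other 4 lines (y axis) in each line (x axis), for 36 constitutive (grey) and 5 immunoproteasome members (red); black bars are group medians and blue dashes are the median of all tested genes of mean log2 10 or more. In CL-1 all 5 red points lie under 0 while the grey median lies at 0.19, and in CLL-1390 all 5 lie above 0.

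The alpha subunits of the 20S core form its gated outer rings. The 7 tested ones (PSMA1 to PSMA7) had ranges of 0.21 to 1.49 with a median of 0.50. PSMA3 (13.29 to 13.50) and PSMA5 (13.16 to 13.46) hardly moved. PSMA1 moved most, at 11.34 in 17-71, 12.20 in CL-1, 11.70 in GL-1, 11.15 in CLGL-90 and 10.70 in CLL-1390. The values were spread over the whole range, with CL-1 0.50 above the next line, GL-1. This probe set is of a type that can bind related transcripts, and 5 further probe sets name PSMA1 together with other loci, so the value may include those loci. PSMA8, the alpha subunit of germ cells, read 4.36 to 4.67, under the foreign-sequence control of every array. PSMB11, the beta subunit of the thymic cortex, read 6.86 to 7.60, a little above that control in every line and within 0.74, so its probe set is not known to respond in any of them.

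Among the beta subunits of the core, PSMB1, PSMB2, PSMB3 and PSMB5 had ranges of 0.30 to 0.49. PSMB4, a non-catalytic subunit needed for assembly, was the exception beside PSMB6. It read 14.29 in 17-71, 13.34 in CL-1, 13.09 in GL-1, 13.07 in CLGL-90 and 13.35 in CLL-1390. The other 4 lines lay close together, and 17-71 stood 0.94 above the nearest.

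The genes beside PSMB4 were high in 17-71 too. By gene order in the dog reference, PSMD4, which encodes a ubiquitin receptor of the 19S cap, lies on the same chromosome with 4 genes in between. The probe set that names PSMD4 together with its neighbour PIP5K1A, a lipid kinase, read 12.86 in 17-71 against 11.04 to 11.66 in the other lines, and PIP5K1A on its own read 11.46 against 9.48 to 9.96. Of the 4 genes in between, a pair was high in 17-71: RFX5, a factor of MHC class II promoters, read 12.45 against 9.19 to 9.83, and PI4KB, another lipid kinase, 11.39 against 8.91 to 9.69. ZNF687 barely differed (8.59 against 8.39 to 8.44), and SELENBP1 was dim and highest in CLL-1390 (6.53, with 5.92 in 17-71). Of the 10 tested genes on each side of PSMB4, 17 of 20 lay above the mean of the other lines in 17-71, with a median difference of 1.25, and 12 of 20 lay at least log2 0.5 above every other line. The share for all tested genes in 17-71 was 4.07%. A running median over 21 tested genes stayed at 0.5 or more over 35 genes, from ANXA9 to SLC16A1, in which 17 genes (48.6%) stood at least 0.5 above every other line, against 6.80% of the other 397 tested genes of that chromosome. In the other 4 lines the medians over this stretch were -0.28 to -0.08. Each difference is taken from the mean of the other lines, so a high 17-71 by itself lowers these values. The running median could not be taken within 10 tested genes of the chromosome's end, which sets where the stretch stops. Its bounds were chosen after the values were seen and by the values of 17-71. A higher share of genes high in 17-71 inside it than outside therefore follows from that choice. DNA copy number was not analysed here.

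**Figure D4:**
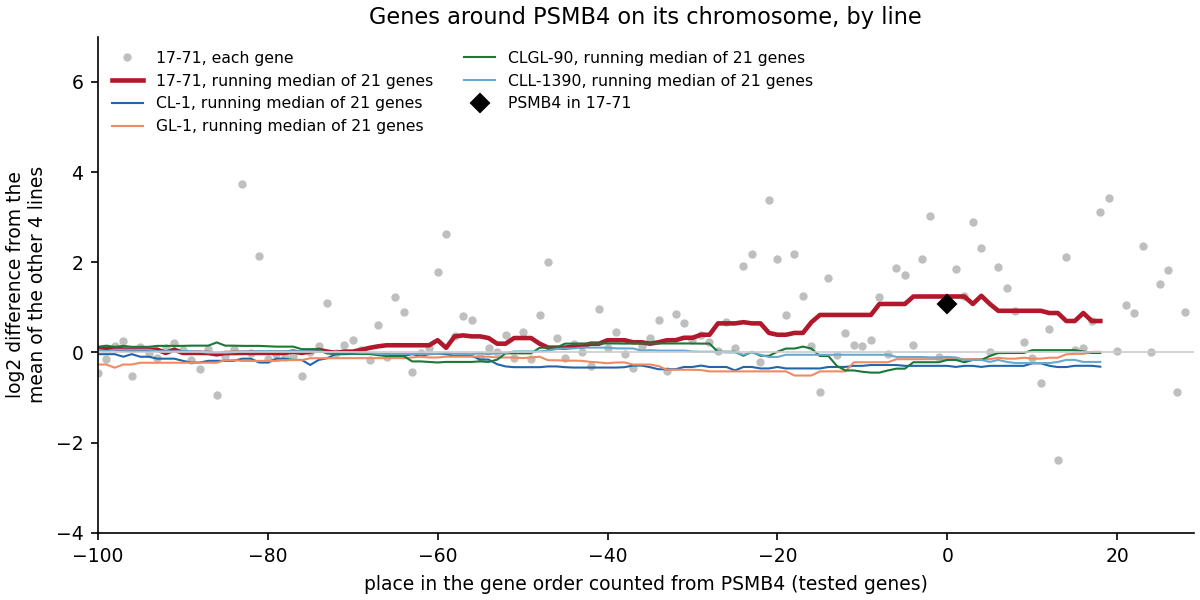
Log2 difference from the mean of the other 4 lines (y axis) for tested genes placed by their order on the chromosome of PSMB4 (x axis, counted from PSMB4); grey points are genes in 17-71, lines are running medians over 21 genes in each of the 5 lines. The median of 17-71 climbs to 1.24 at PSMB4. Those of the other lines stay near or under 0, and a high 17-71 lowers them by the way the difference is taken.

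Of the 19S ATPases, PSMC4 differed most. It read 9.77 in 17-71, 11.30 in CL-1, 10.94 in GL-1, 10.93 in CLGL-90 and 11.68 in CLL-1390. Line 17-71 lay 1.16 below the next, and a second probe set of PSMC4 repeated this (8.50 against 9.58 to 10.37). Its 20 tested neighbours leaned the same way in 17-71: 17 lay under the mean of the other lines, 6 of them at least 0.5 below every line (2.97% of all tested genes did), and their median was -0.25. The other ATPases measured, PSMC2, PSMC3, PSMC5 and PSMC6, had ranges of 0.53 to 0.77. All 5 ATPases lay above the mean of the other lines in CL-1 (median 0.40).

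Among the 11 PSMD genes, non-ATPase subunits and, in PSMD9 and PSMD10, assembly factors of the cap, 9 lay above the mean of the other lines in CL-1 and 3 varied by a doubling. PSMD14, the deubiquitinase of the cap, read 13.27 in 17-71, 13.12 in GL-1 and 13.03 in CLGL-90, against 12.35 in CLL-1390 and 12.10 in CL-1. Its second probe set also put CL-1 (10.82) and CLL-1390 (10.50) below the other 3 (11.35 to 11.73). PSMD8, a structural subunit, read 12.44 in 17-71, 13.00 in CL-1, 11.82 in GL-1, 12.70 in CLGL-90 and 13.21 in CLL-1390. GL-1 lay 0.62 below every other line, and in a second probe set it was lowest again (9.55, against 10.27 to 11.45). PSMD11, another structural subunit, read 11.34 in 17-71, 12.24 in CL-1, 11.01 in GL-1, 11.34 in CLGL-90 and 11.63 in CLL-1390. A dimmer probe set of PSMD11 was lowest in CL-1 (7.90, against 8.11 to 8.50), so the high value in CL-1 rests on 1 probe set.

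The other activators both peaked in CL-1. PSME3 (PA28 gamma), a nuclear activator that interferon does not induce, read 11.94 in CL-1 and 10.54 in 17-71, 10.59 in GL-1, 10.48 in CLGL-90 and 10.42 in CLL-1390. The 4 lower lines were nearly equal, and CL-1 stood 1.36 above them, by 1 probe set. Of its 20 tested neighbours 10 lay above the mean of the other lines in CL-1 (median 0.01). PSME4 (PA200) read 9.48 in 17-71, 9.77 in CL-1, 9.10 in GL-1, 8.71 in CLGL-90 and 8.41 in CLL-1390. A second probe set kept this order, while another put CL-1 (8.15) below 17-71 (9.58), GL-1 (8.82) and CLGL-90 (8.34). PSMF1, an inhibitor, ranged over 0.44, and the assembly chaperones PSMG1, PSMG2 and PSMG3 over 0.27 to 0.71.

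Few proteasome genes stood apart in a line. In 17-71, 1 of 41 lay at least 0.5 above every other line (PSMB4; all genes 4.07%) and 1 lay as far below (PSMC4; all genes 2.97%). In CL-1, PSMD11 and PSME3 lay above (all genes 8.97%) and 0 below (3.80%). In GL-1, 0 lay above (2.85%), and PSMB10 and PSMD8 lay below (1.67%). In CLGL-90, 0 lay above (2.92%) and 0 below (3.41%). In CLL-1390, PSMB10 lay above (4.28%) and 0 below (3.47%). The 20 tested neighbours of PSMB10 lay on its side of the other lines in 15 cases in GL-1 (median -0.24) and 13 in CLL-1390 (0.19). For PSMD8 in GL-1 it was 14 of 20 (-0.14), and for PSMD11 in CL-1 11 of 20 (0.08).

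No proteasome gene passed the test between lineage labels. In the limma comparison of the 2 B-labelled with the 3 T-labelled lines, 0 of 41 passed an adjusted p of 0.05, where 1 of 14162 genes did (0.00706%; LYZ, which encodes the lysozyme of myeloid cells), and 1 of 41 (PSMD8) had an unadjusted p under 0.05, where 3.52% of all genes did. The groups did not overlap in 2 genes higher in the B-labelled lines (PSMA5 and PSMD14, 4.88% against 6.12% of all genes). They did not overlap in 3 genes higher in the T-labelled lines (PSMC5, PSMD8 and PSMD13, 7.32% against 9.26%). The median difference, B-labelled minus T-labelled, was -0.06 over the 41 genes and -0.03 over all tested genes, with 16 above 0 and 25 below.

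The intervals of these differences were wide. PSMD8 stood at 12.13 ± 0.44 (SD, n = 2 lines) in the B-labelled and 12.97 ± 0.26 (n = 3) in the T-labelled lines. The difference was -0.84 (SE 0.28, 95% interval -1.58 to -0.10, limma adjusted p = 0.9999). PSMB10 differed by -0.92 (SE 0.49, interval -2.19 to 0.34, limma adjusted p = 0.9999), with 17-71 and CL-1 close together and the groups overlapping. PSMC4 differed by -0.95 (SE 0.44, interval -2.09 to 0.19), and PSMD14 by 0.70 (SE 0.33, interval -0.16 to 1.56). PSMB8 differed by -0.38 (SE 0.40), PSMB9 by 0.24 (SE 0.23), PSME1 by -0.14 (SE 0.30) and PSME2 by -0.11 (SE 0.21), and the groups overlapped in each. The median over the 5 immunoproteasome members was -0.14 and over the 36 constitutive ones -0.05. Single lines decided the size of most of these differences. Without GL-1, that of PSMD8 was -0.53, of PSMB10 -0.55 and of PSMC4 -1.53; without CLL-1390 that of PSMB10 was -0.56, and without 17-71 that of PSMC4 was -0.37. PSMB8 moved by over 1.5 times whichever line was left out, to -0.72 without 17-71, -0.69 without CL-1, -0.24 without CLL-1390, -0.22 without CLGL-90 and -0.05 without GL-1. PSMB9 moved to 0.03 without 17-71, 0.15 without CL-1 and 0.45 without GL-1. Leaving out 1 line took PSME1 from -0.35 (without CL-1) to 0.06 (without CLL-1390) and PSME2 from -0.31 (without 17-71) to 0.09 (without GL-1). At the level of probe sets, 0 of 82 tested proteasome probe sets passed in limma and 3 had an unadjusted p under 0.05.

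**Figure D5:**
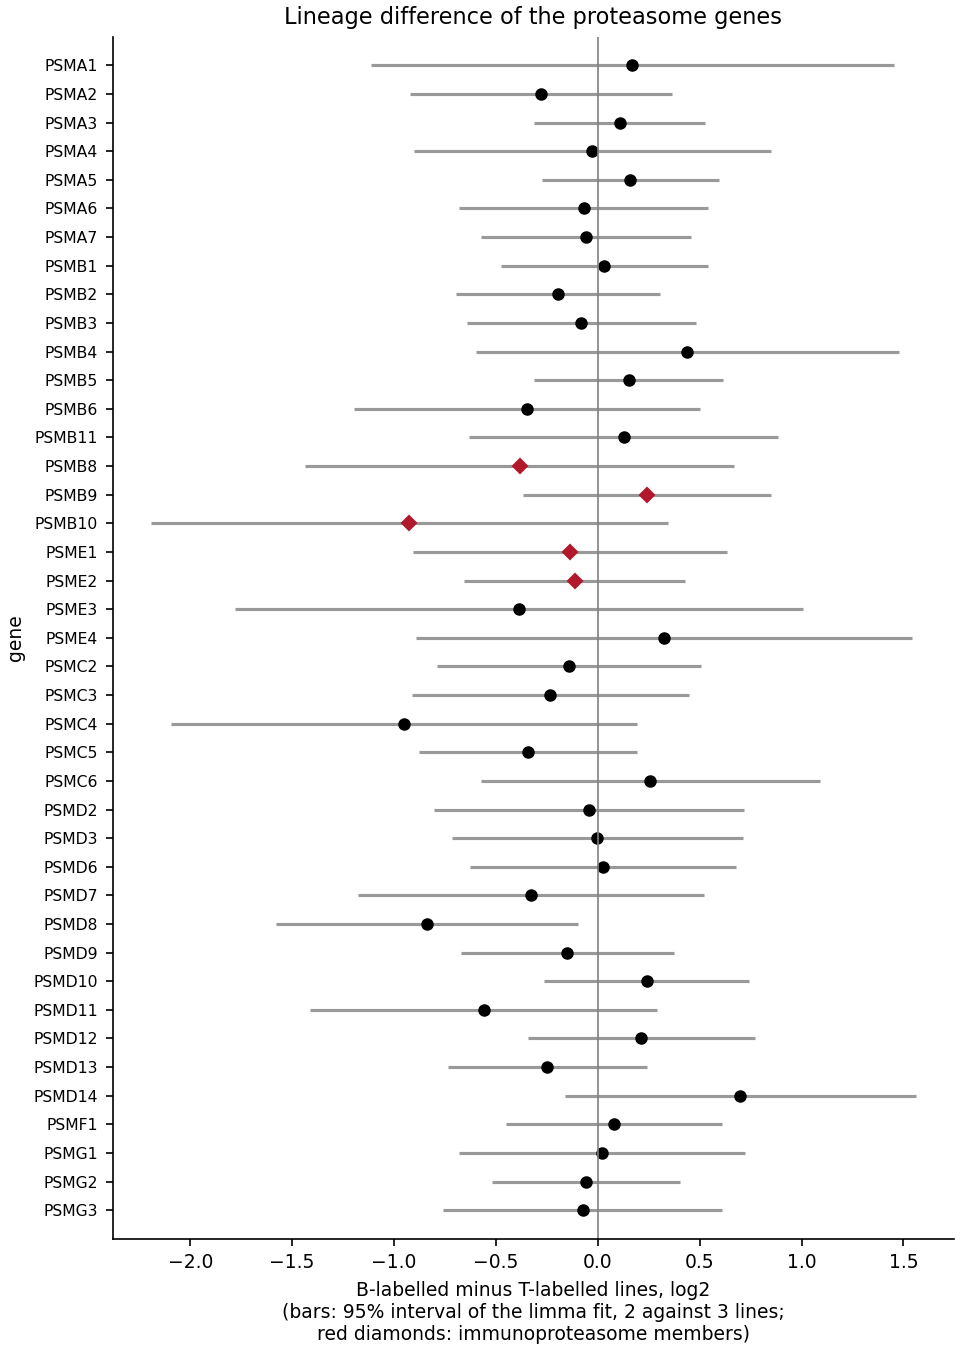
Difference between the 2 B-labelled and the 3 T-labelled lines (x axis, log2) for the 41 tested proteasome genes (y axis, by role), with the 95% interval of the limma fit; red diamonds are immunoproteasome members. All intervals but that of PSMD8 hold 0, and 0 genes passed after adjustment over all genes.

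Further probe sets of a gene did not always give the same order of lines. Of 42 further probe sets, 37 lay above the foreign-sequence control on every array. Of these, 22 had the same highest line as the probe set used, 26 the same lowest line and 17 both. In 30 no line moved by more than log2 0.5 relative to the probe set used, and in 7 a line did, with the largest shifts in PSME4 (1.09), PSMD11 (1.06) and PSMC6 (0.88). Outside these 37, the dimmest probe set of PSMA5 read 9.87 in 17-71 and 10.07 in CL-1, against 4.29 in GL-1, 4.20 in CLGL-90 and 4.15 in CLL-1390. The other 2 probe sets of PSMA5 varied by 0.31 and 0.51, so a range of 5.92 was seen in 1 of its 3 probe sets. The cause was not tested.

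Proteasome cofactors, which deliver substrates or regulate the particle, had a median range of 0.72. Of 27 listed genes 19 were on the array and tested. At either an adjusted or an unadjusted p of 0.05, 0 passed in limma, where 3.52% of all tested genes had an unadjusted p under 0.05. The higher mean lay in the B-labelled lines for 11 and in the T-labelled for 8 (median difference 0.03). A doubling was reached by 7, where 39.0% of all tested genes reached it. ZFAND5, which stimulates the particle, read 11.55 in 17-71, 9.44 in CL-1, 11.20 in GL-1, 10.20 in CLGL-90 and 11.66 in CLL-1390. SEM1, a small cap subunit outside the PSM names, read 12.31 in 17-71, 11.36 in CL-1, 12.49 in GL-1, 12.20 in CLGL-90 and 13.50 in CLL-1390. Both were lowest in CL-1 and highest in CLL-1390. NFE2L2, a stress transcription factor, ranged from 9.27 in CLGL-90 to 10.96 in 17-71, and UBA1, which activates ubiquitin, from 10.62 in CLGL-90 to 12.19 in CLL-1390.

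Genes of MHC class I loading did not wholly share the order of the immunoproteasome as a group. Of 14 listed genes 12 were tested, 0 passed in limma and 2 (TAPBP and CALR) had an unadjusted p under 0.05, where 3.52% of all tested genes did. Their median difference from the other lines was lowest in CLGL-90 (-0.31) and CL-1 (-0.21) and higher in 17-71 (0.11), GL-1 (0.15) and CLL-1390 (0.17). So CLGL-90 was low here and high in the immunoproteasome, and GL-1 the reverse. CLL-1390 was the highest line and CL-1 a low line in both. TAP1 and TAP2, the MHC neighbours of PSMB8 and PSMB9, spanned 0.61 and 0.68, with CL-1 the highest line for TAP2 (11.75) and next to highest for TAP1 (11.56). The widest spans were those of DLA-79 (13.68 in 17-71, 7.58 to 8.64 elsewhere), DLA-64 (12.08 in CLL-1390 and 8.70 in CL-1), ERAP2, a peptide trimming enzyme (9.06 in CL-1 and 5.95 in CLGL-90) and ERAP1 (9.42 in GL-1 and 7.97 in CLGL-90).

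The interferon list, which holds response genes and also receptor chains and kinases of the pathway, had wider ranges than the immunoproteasome members. Of 38 listed genes 31 were on the array and 30 tested, and 0 passed in limma. An unadjusted p under 0.05 was found for 7, where 3.52% of all tested genes had it. A doubling was reached by 21 (median range 1.76), where 39.0% of all tested genes reached it. In CL-1, 9 of 30 lay above the mean of the other lines (median -0.38), against 15 to 18 in each other line (medians 0.02 to 0.09). Over all tested genes the share was also lowest in CL-1, at 42.2% against 43.9% to 56.5%. Many listed genes were dim: 8 lay at or under the foreign-sequence control in CL-1, and 4 to 10 in each other line. IFNGR2, a chain of the interferon gamma receptor, was higher in the B-labelled lines without passing, at 12.02 in 17-71 and 12.57 in GL-1 against 9.48 in CL-1, 7.82 in CLGL-90 and 7.33 in CLL-1390 (limma adjusted p = 0.8044). PSMB9 was highest in 17-71, PSMB8 and PSME2 in CLGL-90, and PSMB10 and PSME1 in CLL-1390. A link between IFNGR2 and these genes was not tested. GBP5, a GTPase, was high in CLGL-90 (11.03, against 6.26 to 7.79), MX1, an antiviral GTPase, in GL-1 (11.34, against 7.06 to 7.51), and OAS2, an RNA sensor, in 17-71 (9.96) and GL-1 (8.71, against 5.62 to 6.20). IRF1, a factor that binds the PSMB9 promoter, is named after its values were seen. It read 10.31 in CLL-1390, 9.87 in CL-1, 9.57 in CLGL-90, 8.89 in 17-71 and 8.77 in GL-1 (difference -1.09, SE 0.27, limma adjusted p = 0.9999). The T-labelled lines all lay above the B-labelled ones, as in 9.26% of all tested genes. In falling order the lines were 17-71, CLL-1390, GL-1, CLGL-90 and CL-1 for PSMB9, within a span of 0.65 by 1 probe set. For PSMB10 the order was CLL-1390, CLGL-90, 17-71, CL-1 and GL-1. A link between IRF1 and any of these genes was not tested.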

How the data were processed

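The log2 intensities per probe set are those the authors deposited. GCRMA is the tool named by the submitters' processing notes; neither a version nor a filter is stated in the material used here. Of 43035 probe sets, 111 controls were left out, 29254 had 1 gene symbol, 439 had several and 13231 had none. The gene IDs of 38 of the 44 matched genes, and the symbols of all 42 subunit genes, were found in the reference gene table (UU_Cfam_GSD_1.0), used for names and gene order only.

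A gene was its probe set of highest mean and was tested where it reached log2 5 on at least 2 arrays (14162 of 15115). The lineages were compared by a two-sided limma test (version 3.58.1, R 4.3.3; 3 residual and 1.74 prior degrees of freedom), and p-values were adjusted by Benjamini-Hochberg over all tested genes. The fit was tested on simulated data whose shifts were larger than the difference of any proteasome gene. That test does not show whether differences as small as theirs would be called. With different tumours as replicates, p-values measure the spread between lines only. The labels name no batch.

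Immunoproteasome members, their counterparts and the 10 further members of largest range were described in full, with up to 4 genes per pathway list by range. Members and lists were chosen with earlier results of these data known. The number of arrays limits precision. Tried as alternatives were leaving the filter out or raising it to log2 7, quantile normalization, centring, a floor of log2 4, an intensity trend, CLGL-90 as its own group, other probe set summaries and leaving out each line.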

Additional observations from a re-analysis of the deposited data

How the results depend on the processing

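The count of proteasome genes called between the lineages was 0 under all 14 alternatives (0 to 2 at an unadjusted p in limma), and the adjusted p of the 18 genes described in full stayed at 0.719 or more. The number of genes varying by a doubling ran from 6 to 11 when 1 line was left out, 6 being the count without CL-1, and was 16 with the most variable probe set of each gene, which takes up the dimmest probe set of PSMA5; the other alternatives gave 11. The difference between the immunoproteasome and constitutive medians kept its sign under all 12 alternatives in every line but 17-71. It ran from -0.82 to -0.52 in CL-1, -0.42 to -0.04 in GL-1, 0.30 to 0.53 in CLGL-90 and 0.38 to 0.62 in CLL-1390. In 17-71 it kept its sign under 10 of 12, with -0.03 to 0.36 when 1 line was left out. Centring, the floor and the raised filter could not test this difference, and each left it unchanged in every line. Centring moves both medians of a line equally. The floor and the raised filter altered no value and removed no member among the tested proteasome genes, so they could not change the count of doublings either. Leaving out PSMB11, an alternative chosen after seeing the data, gave 0.22 in 17-71 and -0.58 in CL-1. The fitted B-labelled minus T-labelled difference changed sign under at least 1 alternative for PSMA1, PSMA4, PSMB4, PSMC6, PSME1, PSME2 and PSME3, none of which passed the test. Without 1 line the difference ran from -1.53 to -0.37 for PSMC4, -1.30 to -0.55 for PSMB10 and -1.15 to -0.53 for PSMD8. No paired analysis was possible because each line is a separate culture and the labels give no replicate numbers. Dim probe sets (PSMA8, PSMB11 and the second of PSMB10) limit what can be read for those genes.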

Other observations

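The 2 genes that share only the name of the family were read as well. PSME3IP1, which encodes a binding partner of the nuclear activator PSME3, read 11.14 in 17-71, 9.43 in CL-1, 10.75 in GL-1, 10.83 in CLGL-90 and 11.44 in CLL-1390. CL-1, the line highest for PSME3, was thus 1.32 below every other line for PSME3IP1, and a second probe set also put CL-1 lowest (9.08, against 9.62 to 10.39). PSMC3IP read 8.88 in 17-71, 9.15 in CL-1, 9.41 in GL-1, 8.42 in CLGL-90 and 9.29 in CLL-1390.

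The probe set that names PSMD5, an assembly factor of the cap, together with a second gene read 10.62 in 17-71, 11.35 in CL-1, 11.18 in GL-1, 9.92 in CLGL-90 and 11.15 in CLL-1390, with CLGL-90 lowest. The brightest probe set that names PSMA1 beside its copies ranged from 13.38 in CLL-1390 to 14.02 in CL-1, the same lowest and highest lines as the probe set of PSMA1 alone.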
